A study of Mus musculus with 18 samples.

Results

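The 8 genes described here, Pparg, Cd36, Cidea, Cidec, Cfd, Plin4, Mogat1 and Fabp4, are genes of fat storage that are best known from adipocytes and from PPARG-driven fatty liver. They were chosen by name from 16245 genes measured in mouse liver, in part because their levels fell with GDF15 and because Cidec and Cfd are among the largest falls. The values of these genes in GDF15-treated mice against the vehicle and the pair-fed mice are therefore given as a description, with no test. RNA was sequenced from the livers of 18 male wild-type C57BL/6 mice (C57BL/6J background in the methods of the study), singly housed at 29 °C and fed a NASH diet rich in fat and fructose from 8 weeks of age. All 18 mice shared the strain, the housing and the diet. There were 6 mice per group. The vehicle group received no GDF15, and the GDF15 group received daily subcutaneous recombinant GDF15, a stress-induced cytokine that lowers food intake. The pair-fed group was given the amount of food that the GDF15 group had eaten on the day before. The dose of GDF15 given to these mice was not assigned to samples in the labels, and no lean or chow-fed mice were analysed here. Library totals were 16508864 to 35301853 counts, and 3 counts, taken as the limit of detection, came to 0.0850 to 0.182 CPM, which are counts scaled to a common library total. This limit covers counting error only.

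PPARG is a nuclear receptor that pairs with RXR on DNA and switches on the genes of fat uptake and storage. It is the master regulator of adipocytes, is present at a low level in lean liver, and rises in fatty liver, where fat-storage genes otherwise typical of adipocytes are also transcribed. CD36 and FABP4 take up and carry fatty acids, MOGAT1 builds them into glycerides, CIDEA, CIDEC and PLIN4 sit on the lipid droplet, and complement factor D (Cfd, or adipsin) is a serine protease secreted mainly by adipocytes.

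The promoters of Cfd, Cidec, Cd36 and Pparg are shown to give the sequences that lie before the RNAs measured. Cidea, which also had one of the largest falls, had no promoter entry. The stretches end at the base before the transcript start of RefSeq (GRCm38.p6), are read 5′ to 3′ on the strand of the gene, and carry in capitals the hexamer AGGTCA, the core that PPARG and other nuclear receptors recognise, or its reverse complement TGACCT, and the TATA motif TATAAA or TTTATA. In the GENCODE M21 annotation of GRCm38 none of them overlaps an exon. The Cfd and upstream Cidec stretches lie outside genes, and the others lie in introns of the gene they are named for. They come from chr10:79890603-79890852 (plus strand) for Cfd, chr6:113435761-113435880 and chr6:113434765-113434884 (minus strand) for the upstream and the downstream start of Cidec, chr5:17835897-17836146 (minus strand) for Cd36, and chr6:115421946-115422065 (plus strand) for the most downstream of the Pparg starts.
Cfd: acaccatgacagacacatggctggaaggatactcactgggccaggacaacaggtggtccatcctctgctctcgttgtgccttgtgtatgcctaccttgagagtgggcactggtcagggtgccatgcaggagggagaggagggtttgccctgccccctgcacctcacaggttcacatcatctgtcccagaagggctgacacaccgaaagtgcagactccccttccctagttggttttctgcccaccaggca
Cidec, upstream start: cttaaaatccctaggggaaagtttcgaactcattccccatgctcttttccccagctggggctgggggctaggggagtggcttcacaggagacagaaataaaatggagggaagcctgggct
Cidec, downstream start: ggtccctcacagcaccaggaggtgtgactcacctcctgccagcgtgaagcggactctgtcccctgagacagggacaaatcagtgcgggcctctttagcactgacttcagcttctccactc
Cd36: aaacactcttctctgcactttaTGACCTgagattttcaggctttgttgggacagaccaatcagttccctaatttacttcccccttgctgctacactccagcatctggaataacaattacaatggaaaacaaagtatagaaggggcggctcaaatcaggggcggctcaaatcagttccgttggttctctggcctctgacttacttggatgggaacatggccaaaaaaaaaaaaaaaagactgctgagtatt
Pparg, most downstream start: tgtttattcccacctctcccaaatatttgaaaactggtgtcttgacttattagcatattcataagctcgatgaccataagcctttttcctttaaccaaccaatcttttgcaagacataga

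Of the 8 genes, 6 had an entry, with 9 starts in all, and Cidea and Fabp4 had none. Each start was searched over the 250 bases before it on both strands. The hexamer was present before 3 of the 9 starts, 228 bases before that of Cd36 and 28 and 9 bases before the upstream starts of Pparg, compared with 14.0% of 32851 windows of the same length. These windows of Pparg overlap exons of other Pparg transcripts and are not printed. The paired motif of a PPARG and RXR dimer, AGGTCANAGGTCA, was before 0 of 9 starts and in 0.0335% of all windows. A looser form, AGGNCANAGGNCA, which includes the exact pair, was also before 0 of 9 starts and in 0.338% of all windows. TATAAA was found before 1 of 9 starts, 29 bases before a Pparg start, and in 12.4% of all windows. The stretches are short, and a letter match, or its absence, says nothing of binding.

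Expression of Pparg (chr6:115360951-115490399, GRCm38, plus strand) was about 2-fold lower after GDF15. In normalised read counts, which are counts divided by the size factor of the library, it measured 551 to 738 in vehicle mice (median 648), 257 to 398 in GDF15-treated mice (median 310) and 473 to 626 in pair-fed mice (median 605). All 6 GDF15-treated mice lay below the 12 others, whereas the vehicle and pair-fed mice overlapped. The log2 fold change of GDF15 was −1.05 ± 0.11 (SE, n = 6 per group) against vehicle and −0.89 ± 0.11 against pair-fed mice. Counts per gene do not separate the transcripts that begin at the different starts of Pparg.

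**Figure D1:**
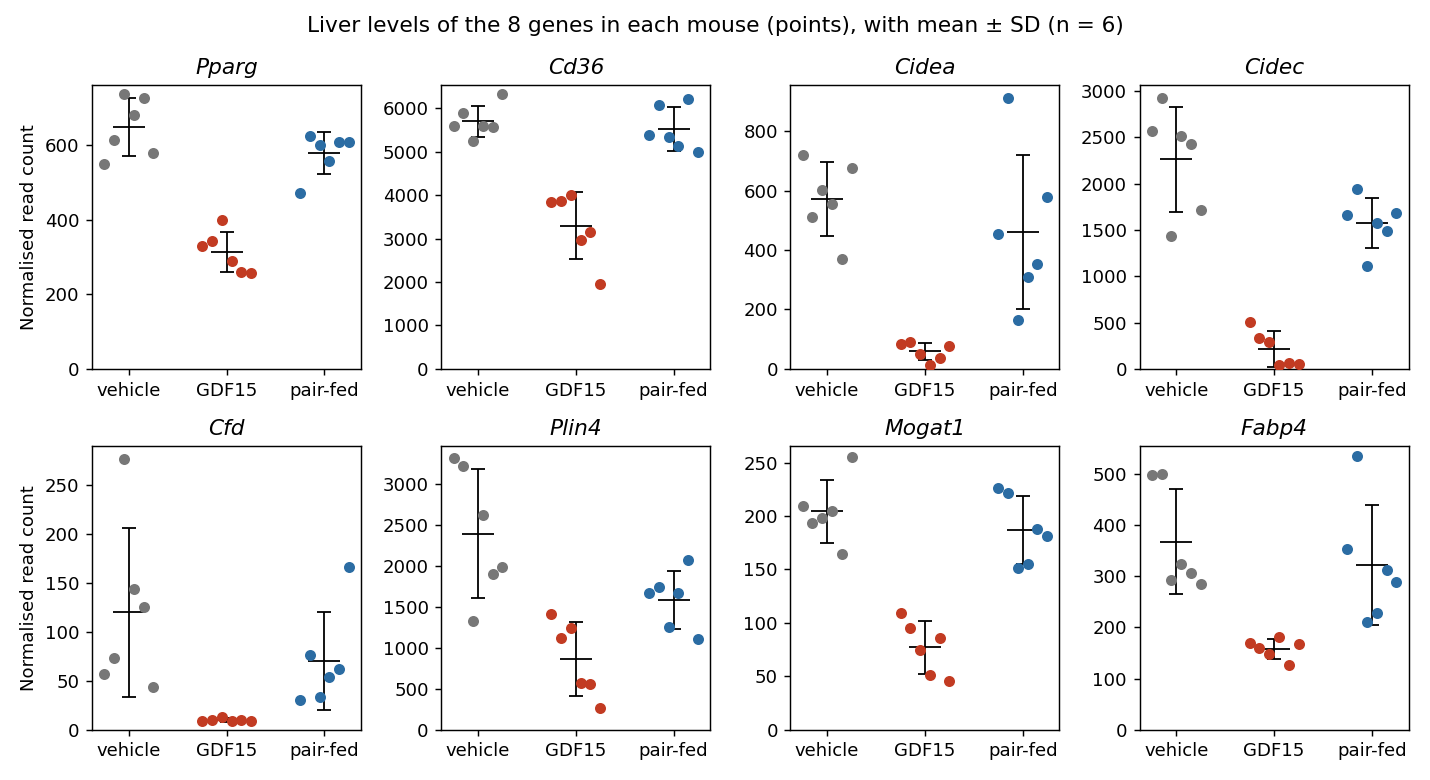
Normalised read counts (linear vertical axes from 0) of the 8 genes in each of 6 vehicle (grey), 6 GDF15-treated (red) and 6 pair-fed (blue) mice. Points are mice and black bars are the mean ± SD; Plin4 is the gene in which a GDF15-treated mouse, at 1407, reaches into the range of the other groups.

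Genes of fatty acid uptake and transport were also lower after GDF15. Cd36 (chr5:17781690-17888801, minus strand), which encodes a fatty acid receptor of the plasma membrane, was the most abundant of the 8 genes. It measured 5250 to 6319 in vehicle mice (median 5589), 1959 to 4012 after GDF15 (median 3492) and 4990 to 6202 with pair-feeding (median 5368). No GDF15-treated mouse reached the range of either other group. The log2 fold change was −0.79 ± 0.13 against vehicle and −0.74 ± 0.13 against pair-fed mice, the smallest among the 8 genes in both comparisons. Fabp4 (chr3:10204088-10208576, minus strand), which encodes a cytosolic fatty acid carrier that macrophages and capillary endothelium also make, measured 284 to 501 with vehicle (median 315), 126 to 181 after GDF15 (median 163) and 211 to 535 with pair-feeding (median 301). Again all GDF15-treated mice were below the 12 others, with a log2 fold change of −1.22 ± 0.21 against vehicle and −1.02 ± 0.21 against pair-fed mice.

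Mogat1 (chr1:78510991-78538173, plus strand) encodes a monoacylglycerol acyltransferase, an enzyme that makes diacylglycerol and is induced in fatty liver. It measured 164 to 255 in vehicle mice (median 201), 45.8 to 109 in GDF15-treated mice (median 80.2) and 151 to 226 in pair-fed mice (median 184). The GDF15-treated mice did not overlap with either group, and the log2 fold change was −1.39 ± 0.18 against vehicle and −1.27 ± 0.18 against pair-fed mice.

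The CIDE genes of the lipid droplet, Cidec and Cidea, were lower by more than these genes in both comparisons. Cidec (chr6:113424634-113435760, minus strand) encodes a protein that fuses small droplets into large ones. It measured 1433 to 2920 in vehicle mice (median 2470), 44.95 to 510 after GDF15 (median 176) and 1111 to 1943 with pair-feeding (median 1617). The GDF15 mean was 9.47% of the vehicle mean and 13.6% of the pair-fed mean, and the GDF15-treated mice did not overlap with either group. The log2 fold change was −3.40 ± 0.50 against vehicle and −2.88 ± 0.50 against pair-fed mice. Cidea (chr18:67343604-67367785, plus strand), a relative that also promotes droplet growth and is typical of brown fat, measured 371 to 721 with vehicle (median 578), 14.1 to 89.9 after GDF15 (median 64.2) and 165 to 911 with pair-feeding (median 403). All GDF15-treated mice were below the others although the pair-fed mice spread widely, and the log2 fold change was −3.28 ± 0.40 against vehicle and −2.96 ± 0.40 against pair-fed mice. Plin4 (chr17:56100591-56109803, minus strand), a perilipin that coats droplets, was the exception to the separation of groups. It measured 1325 to 3312 with vehicle (median 2300), 270.0 to 1407 after GDF15 (median 843) and 1105 to 2071 with pair-feeding (median 1665). Only 3 of 6 GDF15-treated mice lay below every pair-fed mouse, and 5 of 6 lay below every vehicle mouse. The log2 fold change of Plin4 was −1.48 ± 0.34 against vehicle and −0.88 ± 0.34 against pair-fed mice.

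Cfd (chr10:79890853-79892655, plus strand) encodes the protease that cleaves factor B and so starts the alternative complement pathway. It had the largest fall against vehicle among the 8 genes. It measured 43.3 to 277 in vehicle mice (median 99.0), 8.44 to 13.3 in GDF15-treated mice (median 9.66) and 30.2 to 166 in pair-fed mice (median 58.1). The GDF15-treated mice were close together and below all others, and the log2 fold change was −3.58 ± 0.46 against vehicle and −2.82 ± 0.46 against pair-fed mice. The GDF15 libraries held 7 to 13 counts of Cfd, so these levels are above the limit of detection but rest on few reads.

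Set among all genes, the 8 genes spanned a wide range of falls. Against vehicle, 7 of the 8 were past the thresholds used to call a gene (adjusted p under 0.05 and an absolute log2 fold change above 1) and Cd36 was short of the fold, where 4.85% of 16242 genes tested were called lower. Against pair-fed mice, Cidea, Cidec, Cfd, Mogat1 and Fabp4 were past them, and 2.43% of all genes were. Since these comparisons chose the genes, nothing is read from the counts. Pparg, Fabp4 and Plin4 lay close to the fold threshold. Pparg against vehicle was at −0.999 without GDF15 replicate 5 and −0.993 without GDF15 replicate 6, short of it. Fabp4 against pair-fed mice was short of it at −0.965 without GDF15 replicate 5, −0.991 without pair-fed replicate 1 and −0.818 without pair-fed replicate 2. Plin4 against pair-fed mice went past it at −1.08 without GDF15 replicate 1 and −1.01 without GDF15 replicate 3. Ranked by log2 fold change against vehicle among 10883 genes with a mean of at least 50 normalised counts, Cfd was the 5th lowest, Cidec the 6th and Cidea the 8th, followed by Plin4 at 90, Mogat1 at 108, Fabp4 at 158, Pparg at 227 and Cd36 at 455. The median log2 fold change of the 8 genes was −1.44 against vehicle and −1.14 against pair-fed mice, with medians over all genes of −0.0020 and −0.0054. All 8 genes passed the filter on low counts, and in 7 of them all 6 GDF15-treated mice lay below the 12 others, a separation found for 4.13% of 13207 genes that passed the filter. RNA from whole liver cannot tell fewer cells of a type from less RNA per cell.

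**Figure D2:**
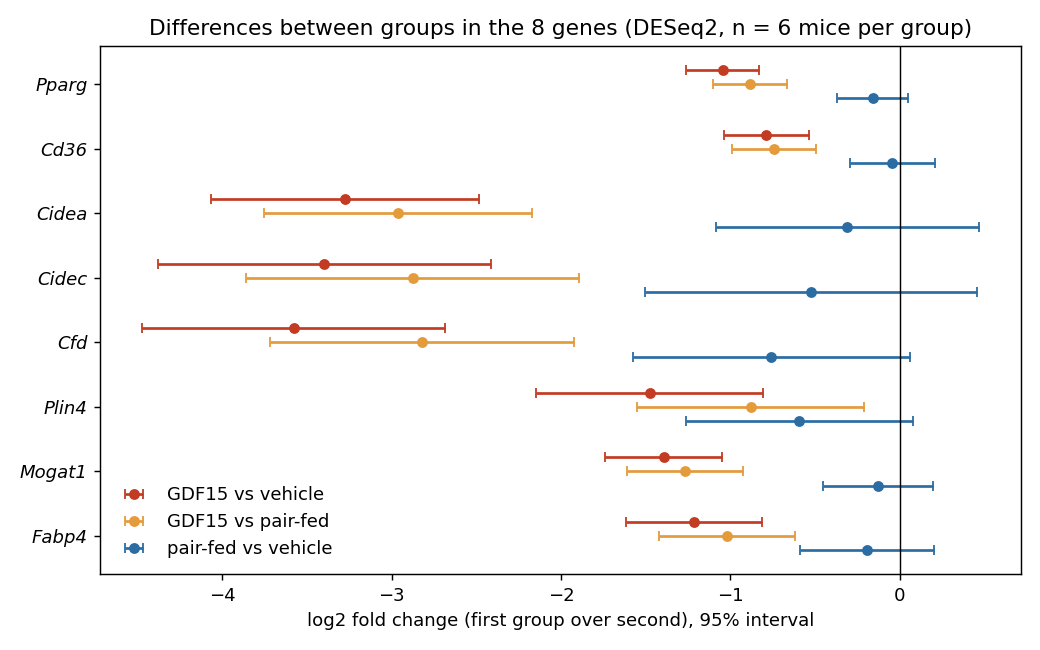
Log2 fold change (horizontal axis) of each of the 8 genes in GDF15 vs vehicle (red), GDF15 vs pair-fed (orange) and pair-fed vs vehicle (blue), with 95% intervals from DESeq2 over 6 mice per group. The 3 longest falls with GDF15 are those of Cfd, Cidec and Cidea, at −3.58, −3.40 and −3.28 against vehicle, and all 8 intervals of pair-fed vs vehicle include 0.

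Pair-feeding asks how much of a difference matched food intake gives by itself. Against vehicle, 0 of 8 genes passed the test in pair-fed mice (DESeq2, adjusted p = 0.998 for each gene), and 0% of 16242 genes tested passed it. No gene of the 8 reached an unadjusted p under 0.05, the lowest being 0.0695 for Cfd, and 718 of the 16242 genes tested did. At such a share 8 genes are too few to be set apart from all genes. The quasi-likelihood test of edgeR also passed 0 of 12992 genes tested, with 620 of these at an unadjusted p under 0.05. Its lowest adjusted p among the 8 genes was 0.969. The estimates were narrowest for Cd36 (log2 fold change −0.05, 95% interval −0.30 to 0.20), Pparg (−0.16, −0.37 to 0.05) and Mogat1 (−0.13, −0.45 to 0.20). That of Fabp4 was wider (−0.19, −0.59 to 0.20). The estimates left room for sizeable differences in the droplet genes and Cfd. The intervals were −1.50 to 0.46 for Cidec, −1.09 to 0.46 for Cidea, −1.26 to 0.07 for Plin4 and −1.58 to 0.06 for Cfd. Single mice moved several of these estimates. That of Cfd, −0.76, went to −0.32 without vehicle replicate 3, its highest vehicle mouse, and to −1.22 without pair-fed replicate 6, its highest pair-fed mouse. That of Cidea, −0.31, went to −0.62 without pair-fed replicate 2 and to −0.14 without pair-fed replicate 3. That of Fabp4 went to −0.40 without pair-fed replicate 2, and to between −0.087 and −0.11 without any of vehicle replicates 1 and 2 and pair-fed replicates 3 and 4. That of Mogat1 went to between −0.055 and −0.078 without vehicle replicate 6 or pair-fed replicate 3 or 4. That of Cd36 stayed between −0.0815 and −0.0145, and moved most without vehicle replicate 6 or any of pair-fed replicates 2, 4, 5 and 6. The estimate was below 0 for all 8 genes (median −0.25), but the vehicle mice compared here also entered the comparison with GDF15 that chose the genes, so the shared direction is not independent.

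Read per length, the order of the genes also differed between groups. Levels are given as normalised counts per kb of the longest coding transcript. In vehicle mice Cd36 stood highest at 1677 ± 107 (SD, n = 6), followed by Cidec at 1315 ± 329, and the ranges of both over mice overlapped. Cidea (513 ± 112), Plin4 (415 ± 137), Fabp4 (411 ± 115) and Pparg (305 ± 36.8) followed. The range of each of these overlapped with that of its neighbour. Mogat1 (166 ± 24.1) lay below every Pparg value, and Cfd (130 ± 93.7) overlapped with it. In GDF15-treated mice Cd36, at 970 ± 229, stood above every other gene in every mouse. The mean of Cidec had moved from the place after Cd36 to the middle of the order, at 125 ± 113. This mean lay between replicates 1 to 3 and replicates 4 to 6, which are given below and did not overlap. The range of Cidec, 26.1 to 296, overlapped those of Fabp4 (177 ± 21.7), Plin4 (149 ± 78.9) and Pparg (147 ± 25.6), and also those of Mogat1 and Cidea. Cidea, at 52.8 ± 26.8, lay beside Mogat1 at 62.7 ± 20.2, and Cfd was lowest at 10.9 ± 1.97. In pair-fed mice the order of the means was that of the vehicle mice with Fabp4 (359 ± 131) above Plin4 (275 ± 60.7), and the ranges of these overlapped.

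**Figure D3:**
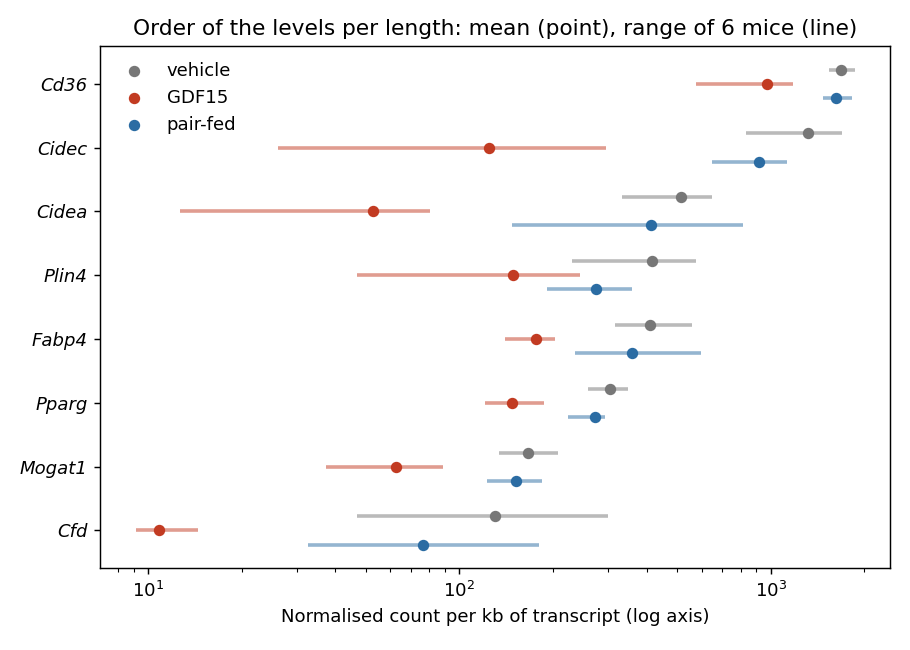
Level of each gene in normalised counts per kb of its longest coding transcript (horizontal log axis), with the mean as a point and the range over 6 mice as a line, for vehicle (grey), GDF15 (red) and pair-fed (blue). Cidec stands next to Cd36 in vehicle mice, at 1315, and its mean is among the middle genes in GDF15-treated mice, at 125 with a range of 26.1 to 296.

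The spread between mice of a group differed by gene. In vehicle mice the coefficient of variation was 6.38% for Cd36 and 12.1% for Pparg but 72.1% for Cfd. In GDF15-treated mice it was 90.3% for Cidec, 52.9% for Plin4 and 50.7% for Cidea, and 18.1% for Cfd. In the GDF15 group, replicates 1 to 3 lay above replicates 4 to 6 without overlap in 4 of the 8 genes. Cidec measured 292 to 510 in the former and 44.95 to 59.8 in the latter, and Plin4 1118 to 1407 and 270.0 to 569. Cd36 measured 3831 to 4012 and 1959 to 3154, and Pparg 329 to 398 and 257 to 290. The 2 sets of replicates were apart, in either direction, for 22.9% of 13207 genes in the GDF15 group, 19.8% in the pair-fed group and 7.20% in the vehicle group, and in these last groups all 8 genes overlapped between sets. Library totals moved with the sets as well. In the GDF15 group they were 21050932 to 25001486 for replicates 1 to 3 and 16508864 to 19108435 for replicates 4 to 6, and in the pair-fed group 17180057 to 17926397 and 25047723 to 35301853. The labels name no batch, and the part of depth or of any batch in these values was not tested.

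Within each set of replicates the 8 genes were lower with GDF15, by different amounts. The genes were chosen for their falls in these same mice, so the direction is a description and no replication. Against the vehicle mice of the same numbers, the log2 fold change of Cidec was −2.60 in replicates 1 to 3 and −5.45 in replicates 4 to 6, that of Plin4 −1.06 and −2.22, that of Cd36 −0.51 and −1.11, and that of Pparg −0.82 and −1.30. Cidea (−3.03 and −3.62) and Mogat1 (−1.10 and −1.77) followed the same order. Cfd (−3.65 and −3.50) and Fabp4 (−1.44 and −0.95) did not. Against pair-fed mice Cidec went from −2.05 in replicates 1 to 3 to −4.95 in replicates 4 to 6, and Plin4 from −0.31 to −1.79. In pair-fed against vehicle mice Cfd was at −1.53 in replicates 1 to 3 and −0.15 in replicates 4 to 6.

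**Figure D4:**
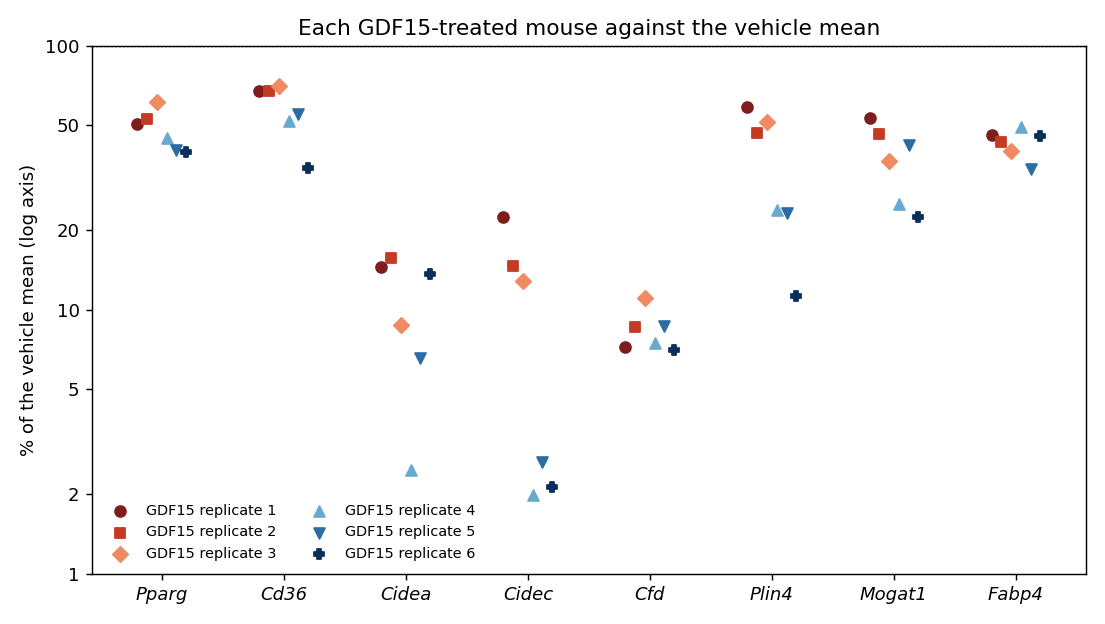
Normalised count of each gene in each of the 6 GDF15-treated mice as a percentage of the vehicle mean (vertical log axis), with replicates 1 to 3 in reds and 4 to 6 in blues. Replicates 4 to 6 lie below replicates 1 to 3 for Pparg, Cd36, Cidec and Plin4, and the sets overlap for Cidea, Cfd, Mogat1 and Fabp4.

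Whether Pparg varied with the other genes from mouse to mouse was examined within each group. Of 21 correlations of log2 values (7 genes in 3 groups, n = 6 each), 0 passed after Benjamini-Hochberg adjustment (exact two-sided permutation, lowest adjusted p = 0.224), and 3 had an unadjusted p under 0.05. In GDF15-treated mice Pparg and Cd36 gave r = 0.807 (exact permutation p = 0.0278) and rho = 0.943 (exact p = 0.0167), with r = 0.852 without the 2 mice farthest from the median of Pparg. Pparg and Plin4 gave r = 0.859 (exact permutation p = 0.0319) and rho = 0.829 (exact p = 0.0583), with r = 0.891 without such mice. These are genes whose levels differ between replicates 1 to 3 and 4 to 6, and sets of 3 mice are too small to hold a correlation of their own. In vehicle mice Pparg and Cfd gave r = 0.907 (exact permutation p = 0.0194) and rho = 0.886 (exact p = 0.0333), with r = 0.920 without the farthest mice, while r with the other 6 genes was below 0. The range over the 7 genes was −0.69 to 0.907 in vehicle mice, 0.0555 to 0.859 in GDF15-treated mice and −0.32 to 0.581 in pair-fed mice. These ranges hung on single mice. Without the 2 farthest mice, r in pair-fed mice ran from 0.268 for Cfd to 0.993 for Fabp4. In GDF15-treated mice r of Cfd went from 0.680 to −0.24, and in vehicle mice that of Cidec from −0.30 to 0.449.

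Other target genes of PPARG changed in both directions. Of 20 further PPARG target genes, 5 were lower and 2 higher in GDF15-treated than in vehicle mice (DESeq2, adjusted p under 0.05), where 15.8% of all genes tested were lower and 14.3% higher, and against pair-fed mice 7 were lower and 1 higher, where 12.2% and 11.8% of all genes were. Their median log2 fold change was −0.19 against vehicle. Aqp7, the glycerol channel of adipocytes, fell by 2.51 on the log2 scale (adjusted p = 3.01e-09), from 22.1 to 96.4 normalised counts in vehicle mice to 6.42 to 13.9 after GDF15, with no overlap. Lpl, the lipase that frees fatty acids from circulating triglyceride, fell by 1.66 (adjusted p = 1.82e-09), from 484 to 1253 counts to 169 to 388. Ucp2, a mitochondrial carrier, fell by 1.10 (adjusted p = 7.72e-13), from 1057 to 1665 counts to 450 to 797. Hilpda and Fitm2, which help to store fat in droplets, also fell, by 0.56 and 0.39. Pck1, a gluconeogenic enzyme, rose by 0.88 (adjusted p = 0.0106), and Acsl1 by 0.37 (adjusted p = 0.0438). Of the 13 genes that did not pass, Scd1 was at −0.34, G0s2 at −0.37 and Angptl4 at 0.24, and Adipoq and Plin1 were too low to be tested.

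Among 20 PPAR receptors, RXR partners and cofactors, 7 were higher and 1 lower against vehicle, and 6 were higher and 0 lower against pair-fed mice. Of all genes tested, 14.3% were higher and 15.8% lower against vehicle, and 11.8% and 12.2% against pair-fed mice. The coactivators Ppargc1a (log2 fold change 0.77, adjusted p = 0.00440) and Ppargc1b (0.52, adjusted p = 0.0249) and the transcription factor Cebpb (0.47, adjusted p = 0.0223) rose against vehicle. All of these overlapped between groups. Ppargc1a was at 217 to 737 normalised counts after GDF15 and 166 to 280 with vehicle, and Cebpb at 2069 to 5514 and 2073 to 2494. Klf5, an adipogenic transcription factor, fell by 1.66 (adjusted p = 0.0277). It was at 2.33 to 22.9 normalised counts in vehicle mice and 1.73 to 10.3 after GDF15, with overlap. The sister receptors did not pass, with Ppara at 0.14 ± 0.13 (SE) and Ppard at 0.27 (adjusted p = 0.0738). Of 16 PPARA target genes, 5 were lower and 1 higher against vehicle, among them Pdk4 (−1.41, adjusted p = 0.00830), Fgf21 (−0.96, adjusted p = 0.00323) and Acaa1b (−0.64, adjusted p = 3.30e-07), while Cyp4a14, a fatty acid hydroxylase, rose by 0.71 (adjusted p = 0.00872). Against pair-fed mice 4 were lower and 0 higher. This count fell to 2 when any of vehicle replicates 4 and 5, GDF15 replicates 1, 2 and 3 or pair-fed replicate 1 was left out.

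Droplet, glyceride and fatty acid genes outside the 8 are given next. Of all genes tested, 15.8% were lower and 14.3% higher against vehicle, and 12.2% and 11.8% against pair-fed mice. The lists are small, and their counts were not tested against these shares. Of 5 relatives of the droplet coat and the CIDE family, Plin2 (−0.79, adjusted p = 1.25e-10) and Plin3 (−0.40, adjusted p = 4.01e-05) fell against vehicle and both fell against pair-fed mice. Cideb, the CIDE gene of normal hepatocytes, was at 5948 to 7011 normalised counts after GDF15 and 6022 to 7179 with vehicle (0.05 ± 0.05), and Plin5 was at 0.27 ± 0.16, and neither passed. Of 10 triglyceride synthesis enzymes, Mogat2, at 2.57 to 14.3 counts after GDF15 and 5.82 to 38.2 with vehicle, fell by 1.53 (adjusted p = 0.00374) and Lpin3 by 0.29, while Lpin1 rose by 1.32 (adjusted p = 0.00641) and Dgat2, which makes the final step to triglyceride, by 0.54 (adjusted p = 6.86e-05). Lpin1 overlapped between groups, at 2869 to 17905 counts after GDF15 and 1524 to 6323 with vehicle. Against pair-fed mice the numbers of these enzymes were again 2 lower and 2 higher. Of 13 genes of fatty acid binding and uptake in the table, 3 were lower and 2 higher. Fabp3, a carrier of muscle and heart, was at 0 to 1.28 counts after GDF15 and 2.22 to 17.2 with vehicle. Fabp5 rose by 1.44 (adjusted p = 0.0121) and Slc27a5, a liver fatty acid transporter, by 0.58 (adjusted p = 7.69e-07). The mice spread widely in Fabp5, at 400 to 3199 counts after GDF15 (median 852) and 428 to 929 with vehicle (median 482). Against pair-fed mice 3 were lower and 1 higher. The count was 2 without GDF15 replicate 6 and 2 without pair-fed replicate 6.

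Complement genes of the pathway that factor D starts did not fall with Cfd. Of 8 genes, 5 were higher and 0 lower in both comparisons, where 14.3% of all genes were higher against vehicle and 11.8% against pair-fed mice. C3, the central component, rose by 0.75 (adjusted p = 4.76e-08), from 85020 to 104565 normalised counts in vehicle mice to 128562 to 246823 after GDF15, without overlap. Hc, which encodes C5, rose by 0.44 (adjusted p = 0.00187), Cfi by 0.29 (adjusted p = 0.00527) and Cfb, the substrate of factor D, by 0.25 (adjusted p = 9.29e-04). In pair-fed against vehicle mice 0 genes of any of these lists passed.

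**Figure D5:**
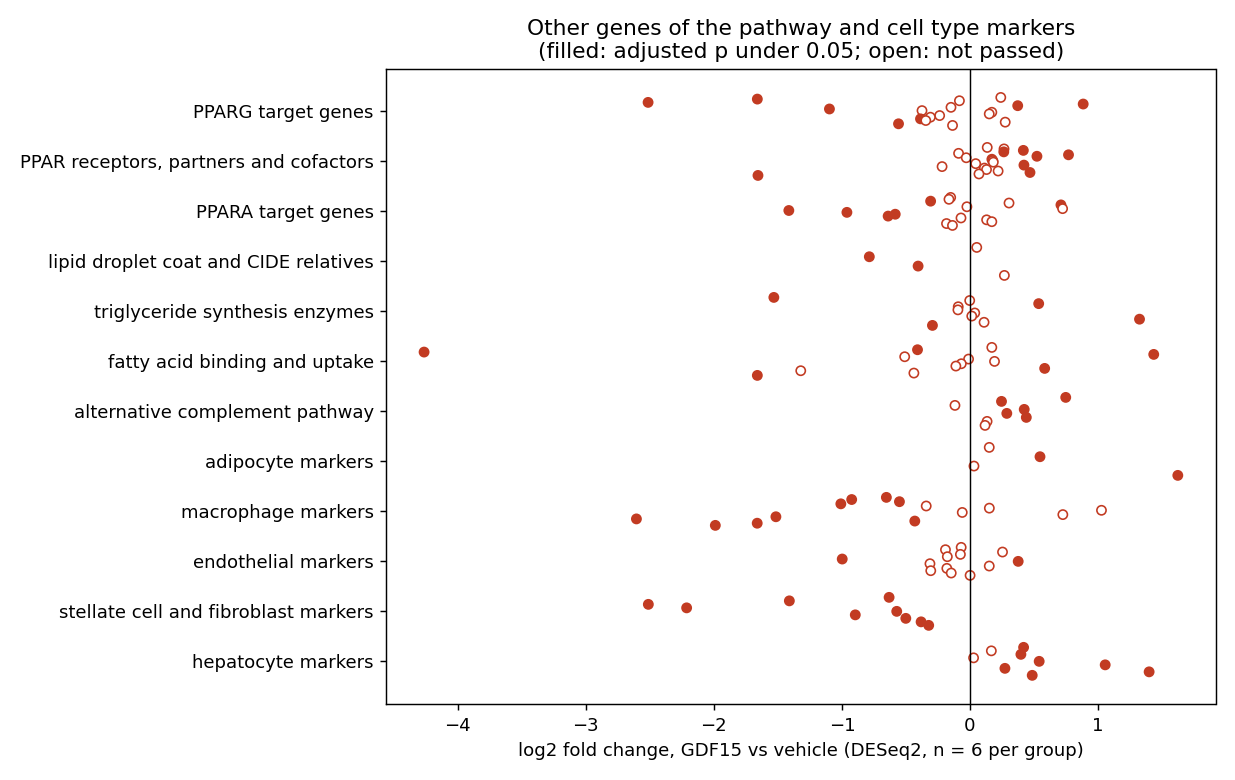
Log2 fold change in GDF15 vs vehicle (horizontal axis, DESeq2, 6 mice per group) of the genes of each list, with filled points at an adjusted p under 0.05 and open points for genes that did not pass. The PPARG target genes spread from −2.51 for Aqp7 to 0.88 for Pck1, and 9 of 9 stellate cell and fibroblast markers lie below 0.

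Because adipocytes, macrophages and capillary cells also transcribe several of the 8 genes, markers of these cells were read beside them. The defining adipocyte markers Adipoq, Retn, Adig and Plin1 were at or near 0, with a summed level of 0.108 to 0.301 CPM in vehicle mice, 0.0551 to 0.142 after GDF15 and 0.115 to 0.407 with pair-feeding. Of 8 adipocyte markers measured, these 4 were too low to be tested in either comparison with GDF15. Of the 4 that were tested, 0 were lower and 2 higher in both comparisons. The 2 were Slc2a4 (1.62 against vehicle, adjusted p = 3.66e-04) and Adrb3 (0.55, adjusted p = 0.00263). Lep, the further marker of that list, was not analysed here. Of 14 macrophage markers, 9 were lower and 0 higher against vehicle, where 15.8% of all genes were lower, and 8 were lower against pair-fed mice, where 12.2% were. Gpnmb (−2.60), Spp1 (−1.99), Itgax (−1.66) and Trem2 (−1.51) fell most against vehicle. Adgre1 (−0.65), Csf1r (−0.55) and Cd5l (−0.43, adjusted p = 0.0496), which resident macrophages carry as well, were also among the 9 that were lower. The 5 that did not pass were Mpeg1 at −0.34 and the markers of resident liver or tissue macrophages Vsig4 at −0.06, Clec4f at 0.15, Marco at 0.73 and Timd4 at 1.03 (adjusted p = 0.0646). The summed level of the 14 macrophage markers was 429 to 1120 CPM in vehicle mice, 241 to 456 after GDF15 and 443 to 847 with pair-feeding. Spp1 gave the largest part of the fall in this sum, with a mean of 4867 normalised counts with vehicle and 1227 after GDF15. Stellate cell and fibroblast markers were lower in 9 of 9 against vehicle, led by Col1a1 (−2.51) and Col3a1 (−2.21), and in 7 of 9 against pair-fed mice, with sums of 400 to 783 CPM, 186 to 298 and 370 to 634. Endothelial markers mostly did not pass, with 1 of 13 lower (Lyve1, −0.997) and 1 higher (Clec4g, 0.38) against vehicle and 2 lower against pair-fed mice, which became 4 without GDF15 replicate 6. They summed to 269 to 403 CPM, 181 to 329 and 283 to 384. Hepatocyte markers were higher in 7 of 9 in both comparisons, led by Tat (1.40), Cps1 (1.06), Hnf4a (0.54) and Tdo2 (0.49). Tat overlapped between groups, at 13193 to 70252 normalised counts after GDF15 and 7174 to 20907 with vehicle. The hepatocyte markers summed to 78814 to 88008 CPM, 95411 to 103652 and 70361 to 98789, and Alb made up most of this. Beside the counts of these lists, 15.8% of all genes tested were lower and 14.3% higher against vehicle, and 12.2% and 11.8% against pair-fed mice. The part of these cell types in the falls of the 8 genes was not tested.

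Finally, the genes whose pattern over the 18 mice was most like that of each of the 8 were found among 10875 others with a mean of at least 50 normalised counts, as the smallest root-mean-square difference in log2(normalised count + 1) after the vehicle mean of each gene was subtracted. The genes nearest to Pparg and Cd36 were at small distances. For Pparg these were Tmem237 (0.195), Acad12 (0.202) and Pyroxd2 (0.206), and for Cd36 Camk2n2 (0.158), Abhd2 (0.172) and Ermp1 (0.172). Fabp4 was nearest to Nudt18 (0.197), Scamp5 (0.244) and Loxl2 (0.250), and Mogat1 to Lgals1 (0.272), Col12a1 (0.282) and Apoa4 (0.290). Plin4 was nearest to Gpr12 (0.390), Cxcl14 (0.411) and 2010003K11Rik (0.414). The genes with the largest falls had no neighbour this near. The measure is not scaled, so it grows with the size of a fall and with the spread between mice. Larger distances for these genes follow in part from this and do not by themselves mark an unusual pattern. Themis was at 0.609 from Cidea, 0.710 from Cidec and 0.937 from Cfd, and Ubd at 0.645 from Cidec. Gsta1, whose reads cannot be told with certainty from those of its close relatives, was at 0.761 from Cidea and 0.706 from Cidec. Cib3 stood at 0.792 from Cidea, and Gprc5b and Cntnap1 at 0.983 from Cfd.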

How the data were processed

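Total liver RNA from 18 mice, 6 in each of the vehicle, GDF15 and pair-fed groups, was sequenced with paired ends on 1 platform from directional libraries. After adapter trimming by Trim Galore and quantification by Salmon, the authors deposited a single matrix that gives, for each gene symbol and sample, an estimated count in whole numbers with no scaling for depth. The submitters' processing notes name the build mm10. The tool versions and the transcriptome are not given in the sources used here. The table held 16245 genes with row totals of at least 5, and every column was used. Groups came from the sample titles, which label separate samples. Salmon divides reads shared by similar transcripts, and the table holds genes and not isoforms.

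Counts were fitted with DESeq2 1.42.0 (R 4.3.3), the tool the study names, over all 18 samples with group as the only factor, size factors by the median of ratios, Wald tests, independent filtering, Benjamini-Hochberg adjustment and unshrunken fold changes. Genes were called at an adjusted p under 0.05 and an absolute log2 fold change above 1, and genes of the lists were counted at an adjusted p under 0.05. The procedure was also run on simulated counts with 1 fixed spread for all genes. That spread is smaller than that of genes such as Cidec after GDF15, so the run does not measure how the procedure performs for them. Correlations within groups used exact permutation. Positions and lengths are from GENCODE M21 and promoters from RefSeq, both on GRCm38.

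The 8 genes and the lists were chosen with earlier results of these data known. Named genes were the 8, in each list up to 4 genes with the largest change among those that passed in GDF15 vs vehicle together with some that did not pass, and the 3 most similar genes for each of the 8. Further genes that passed were named after their values were seen where a count was 5 or lower. The values of 1 list gene are not reported here. Several genes are in more than 1 list (Plin1, Lipe, Adipoq, Lpl and Fabp1). Alternatives were edgeR 4.0.16 with TMM, TMM library sizes in DESeq2, a count filter, no independent filtering, thinned libraries, fits of 12 samples, no fold threshold, other pseudocounts, the replicate number as a block and each sample left out in turn. Fits of replicates 1 to 3 and 4 to 6 alone were added after the data were seen.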

Additional observations from a re-analysis of the deposited data

Results flagged for a closer look

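Among the 24 sets of 6 mice (8 genes in 3 groups), 1 value stood apart from its group. Cfd in pair-fed replicate 6 measured 166.4 normalised counts, and its distance to the next mouse was 0.658 of the whole range of the group, above the critical value of Dixon for 6 samples. Chance alone would set apart about 1 in 20 such sets.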

How the results depend on the processing

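Over all alternatives other than the fits of 3 replicates, the log2 fold changes of the 8 genes were below 0 in 600 of 600 values, gained 0 calls in pair-fed vs vehicle, and moved by less than the spread between mice in both GDF15 comparisons. Their direction in the GDF15 comparisons follows from the choice of the genes. The fold changes near the fold threshold crossed it. Fabp4 against pair-fed mice was at −0.97 with the replicate block, and Plin4 at −1.002, beside the values without single samples given above. Of the values from replicates 1 to 3 or 4 to 6 alone, Cd36 in pair-fed vs vehicle turned to 0.011 in replicates 1 to 3. No gene of the 8 passed in pair-fed vs vehicle when any sample was left out. The counts of all genes moved more. Without the fold threshold, 4885 genes passed in GDF15 vs vehicle and 3894 in GDF15 vs pair-fed, compared with 920 and 484. Leaving out each sample in turn gave 0 to 2 calls in pair-fed vs vehicle, and replicates 1 to 3 alone gave 3 and replicates 4 to 6 alone 11, which are fits of 3 mice a group. Same-numbered samples of 2 groups correlated by more than 0.1 in 2, 3 and 3 of 6 pairs. Only 1 of 6 samples correlated best with its own number in each comparison. In pair-fed vs vehicle the mean was 0.161 for same numbers, with a highest value of 0.501, and −0.033 for other numbers. These values cannot settle whether the replicate numbers pair the mice, and the labels name no pairing. A fit with a replicate block called 885 genes in GDF15 vs vehicle, 501 in GDF15 vs pair-fed and 2 in pair-fed vs vehicle.

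The counts of list genes are given as GDF15 vs vehicle, then GDF15 vs pair-fed. Requiring an absolute log2 fold change above 1 as well left 3 and 2 PPARG targets, 1 and 0 PPAR partners and cofactors, 1 and 1 PPARA targets, 0 and 0 droplet relatives, 2 and 2 triglyceride enzymes, 3 and 1 fatty acid binding and uptake genes, 0 and 0 complement genes, 1 and 1 adipocyte, 5 and 4 macrophage, 0 and 0 endothelial, 3 and 2 stellate and 2 and 2 hepatocyte markers. This alternative keeps fewer genes by its construction. For the other moves the cause was not tested. PPARA targets against pair-fed mice numbered 2 with edgeR, 2 with no independent filtering, 2 with only the 12 samples compared, 7 in replicates 1 to 3, 8 in replicates 4 to 6 and 2 to 5 when a sample was left out. In replicates 4 to 6 alone there were 3 and 3 PPAR partners and cofactors, 1 and 1 droplet relatives, 1 and 1 endothelial and 1 and 1 adipocyte markers, and against pair-fed mice 2 triglyceride enzymes and 3 hepatocyte markers. In replicates 1 to 3 alone there were 2 and 3 complement genes, 1 adipocyte marker against vehicle, and against pair-fed mice 2 triglyceride enzymes and 4 stellate markers. Leaving out 1 sample gave 2 to 4 fatty acid binding and uptake genes against pair-fed mice, and 1 to 3 and 2 to 4 endothelial markers, the 1 without GDF15 replicate 5. Among the 8 genes depth limits Cfd in the GDF15 group most, at 7 to 13 counts, and list genes such as Fabp3, Klf5 and Mogat2 lie lower.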
